A study of Mus musculus with 3 samples.

Results

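The imprinted genes of the mouse were described by where 5-hydroxymethylcytosine (5hmC) peaks lay around them in bone marrow DNA. The 43 members (35 protein-coding genes and 8 non-coding RNA genes, in 21 clusters) were taken by name, and a peak belonged to a member when its midpoint fell in the gene's annotated mm10 span or within 5 kb of it. All 43 names were found in the gene table, where Nespas stands as Gnasas1, out of 49603 annotated genes. They drew 353 of the 208468 distinct peaks of the deposited list (exact 95% Poisson interval for the count, 317 to 392).

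The series holds 2 samples of an acute myeloid leukaemia called NIDF-AML, in which marrow cells carry FLT3-ITD, DNMT3A R882H, NPMc and IDH2 R140Q, and 1 sample of normal bone marrow. The labels give no strain, age, promoter, clone or number of animals for either group. The deposited peak lists of both leukaemia samples hold the same 223267 lines, so they were counted as 1 sample, and no list of normal marrow was analysed here. Both list headers name the library with index 4 as treatment, with index 5 as control in one and index 6 in the other. The labels tie index 4 to none of the samples, so the values below describe "the index 4 library", which may be leukaemic or normal. They have no replicate, no test between groups and no known read depth. The labels do not say what the control libraries with index 5 and 6 are. All 3 samples are 5hmC libraries, so a control may be one too, and a listed peak would then be an excess over that library. A gene without a peak is a gene without a listed peak.

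Imprinted genes are transcribed mainly from the maternal or mainly from the paternal chromosome. The choice is set by imprinting control regions, stretches of CpG-rich DNA that are methylated in the egg or in the sperm and keep that methylation on 1 parental copy in the body. 5hmC is made from 5-methylcytosine by the TET dioxygenases, enzymes that need 2-oxoglutarate, and mutant IDH2 makes 2-hydroxyglutarate, which inhibits them. A peak list does not tell the parental copies apart.

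All 7 marrow genes listed for comparison had a peak within 5 kb, against 73.1% of 21779 protein-coding genes. Their counts ran from 11 at Elane to 34 at Spi1, the master regulator of myeloid cells. Of 6 genes of other tissues, 2 had a peak, Apoa1 with 3 and Myh6 with 1, while Alb, Snap25, Gad1 and Syt1 had none. Both lists were chosen with earlier results of these data known, so they describe the list and do not test it.

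The promoters on which the peak list bears most directly are printed first. Each is a RefSeq promoter window of GRCm38.p6, 250 bases before to 50 bases after an annotated start, written 5′ to 3′ on the gene's strand with each CpG, the dinucleotide that carries the methyl or hydroxymethyl mark, in capitals. The Igf2r, Mest and Commd1 windows are shown because a peak lay on them, and the Airn and Nap1l5 windows because a peak lay just downstream. The Peg3 and Kcnq1ot1 windows are shown because these starts lie in known imprinting control regions and had no listed peak near them. The Airn start, with a peak 133 bp downstream, lies in such a region too. No coordinates of control regions were used, so the windows were not sorted by them. Whether the Igf2r, Mest, Commd1 and Nap1l5 windows lie in such regions was not assessed, so no share of control regions with a peak follows.
Igf2r, chr17:12769657-12769956, minus strand: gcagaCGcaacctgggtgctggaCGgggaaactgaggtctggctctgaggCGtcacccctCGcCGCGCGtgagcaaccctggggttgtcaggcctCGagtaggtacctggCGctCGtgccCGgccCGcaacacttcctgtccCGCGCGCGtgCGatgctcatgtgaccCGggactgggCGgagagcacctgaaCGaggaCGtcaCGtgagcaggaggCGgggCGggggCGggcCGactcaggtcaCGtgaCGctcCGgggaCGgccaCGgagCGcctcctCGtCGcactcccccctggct
Airn, chr17:12741061-12741360, plus strand: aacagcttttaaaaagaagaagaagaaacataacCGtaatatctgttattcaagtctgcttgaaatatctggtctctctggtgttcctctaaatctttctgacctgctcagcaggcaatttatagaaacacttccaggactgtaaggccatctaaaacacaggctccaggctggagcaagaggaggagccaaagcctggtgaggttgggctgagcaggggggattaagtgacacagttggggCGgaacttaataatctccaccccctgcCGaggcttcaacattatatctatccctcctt
Mest, inner start, chr6:30737800-30738099, plus strand: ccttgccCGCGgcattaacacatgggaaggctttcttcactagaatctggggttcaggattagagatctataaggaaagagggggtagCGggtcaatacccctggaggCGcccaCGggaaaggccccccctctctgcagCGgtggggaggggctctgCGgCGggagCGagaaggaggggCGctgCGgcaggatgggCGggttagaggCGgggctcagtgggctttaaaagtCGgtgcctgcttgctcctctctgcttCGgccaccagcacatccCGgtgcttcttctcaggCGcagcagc
Commd1, start inside Zrsr1, chr11:22972817-22973116, minus strand: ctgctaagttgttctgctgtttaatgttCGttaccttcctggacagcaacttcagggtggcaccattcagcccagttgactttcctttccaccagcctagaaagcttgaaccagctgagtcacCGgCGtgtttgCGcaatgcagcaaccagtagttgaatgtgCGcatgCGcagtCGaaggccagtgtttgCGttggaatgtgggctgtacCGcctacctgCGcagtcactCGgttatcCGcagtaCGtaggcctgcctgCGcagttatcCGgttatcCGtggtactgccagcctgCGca
Nap1l5, chr6:58907077-58907376, minus strand: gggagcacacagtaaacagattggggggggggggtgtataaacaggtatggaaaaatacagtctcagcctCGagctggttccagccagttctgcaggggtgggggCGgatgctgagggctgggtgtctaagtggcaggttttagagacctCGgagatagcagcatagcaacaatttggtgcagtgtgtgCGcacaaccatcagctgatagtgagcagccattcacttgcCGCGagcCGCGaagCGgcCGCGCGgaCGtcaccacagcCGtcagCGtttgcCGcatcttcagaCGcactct
Peg3, chr7:6730370-6730669, minus strand: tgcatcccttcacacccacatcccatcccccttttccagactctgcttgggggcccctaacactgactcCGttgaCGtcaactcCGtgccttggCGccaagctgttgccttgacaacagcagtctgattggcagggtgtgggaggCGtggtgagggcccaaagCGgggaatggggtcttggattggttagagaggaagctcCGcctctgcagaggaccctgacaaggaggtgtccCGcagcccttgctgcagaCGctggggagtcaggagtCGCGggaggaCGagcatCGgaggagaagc
Kcnq1ot1, chr7:143296498-143296797, minus strand: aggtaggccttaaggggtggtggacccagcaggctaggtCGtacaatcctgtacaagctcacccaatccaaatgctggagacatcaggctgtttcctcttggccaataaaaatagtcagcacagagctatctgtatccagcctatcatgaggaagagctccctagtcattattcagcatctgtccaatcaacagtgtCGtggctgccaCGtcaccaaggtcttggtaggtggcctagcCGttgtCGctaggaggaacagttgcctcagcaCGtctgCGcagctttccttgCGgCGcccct

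The Igf2r window holds 34 CpGs, and 92.3% of all RefSeq promoters hold fewer. Its peak (chromosome 17, 12769770 to 12769806) covers bases 151 to 187 of the printed run, with 3 CpGs. The Mest window holds 17 CpGs, and its peak (chromosome 6, 30738056 to 30738116) covers bases 257 to 300 and runs past the window. The Commd1 window also holds 17 CpGs, 8 of them under the peak at bases 189 to 277. The Peg3 window holds 13 CpGs and the Kcnq1ot1 window 9, so CpG-bearing promoters of imprinted genes were found both with and without a peak.

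Of the 43 imprinted genes, 30 had a peak within 5 kb (69.8%, Wilson interval 54.9 to 81.4%), against 73.1% of 21779 protein-coding genes. Among all annotated genes the share was 57.9%, and among lncRNA genes 60.8%. In the span alone, 28 members had a peak (65.1%), against 66.6% of protein-coding genes. The shares of members are thus close to those of protein-coding genes. The median over members was 0.0786 peaks per kb of span and flanks, against 0.106 over protein-coding genes, and the median count was 4 in both.

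The counts were uneven. The 10 members with at least 10 peaks (25.5% of protein-coding genes reached that number) held 288 of the 353 peaks, or 81.6%, and Trappc9 alone held 28.9%. The share of peaks at such genes was not computed over protein-coding genes, so whether this unevenness is particular to imprinted genes was not tested. Another 20 members had 1 to 9 peaks, and 13 had none: Igf2, Peg3, Usp29, Zim1, Ube3a, Ndn, Magel2, Mkrn3, Nespas, Rtl1, Mirg, Dio3 and Peg10. Members overlap, so 41 peaks count for more than 1 gene and the counts of the genes sum to 394. Long genes hold more peaks, so each count was also set beside genes of like span. Members under 5 kb had a peak in 8 of 12 cases (66.7%), against 44.9% of protein-coding genes that short. At 5 to 20 kb it was 2 of 6 (33.3%) against 77.4%, at 20 to 100 kb 12 of 16 (75%) against 84.0%, and at 100 kb or more 8 of 9 (88.9%) against 85.5%.

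**Figure D1:**
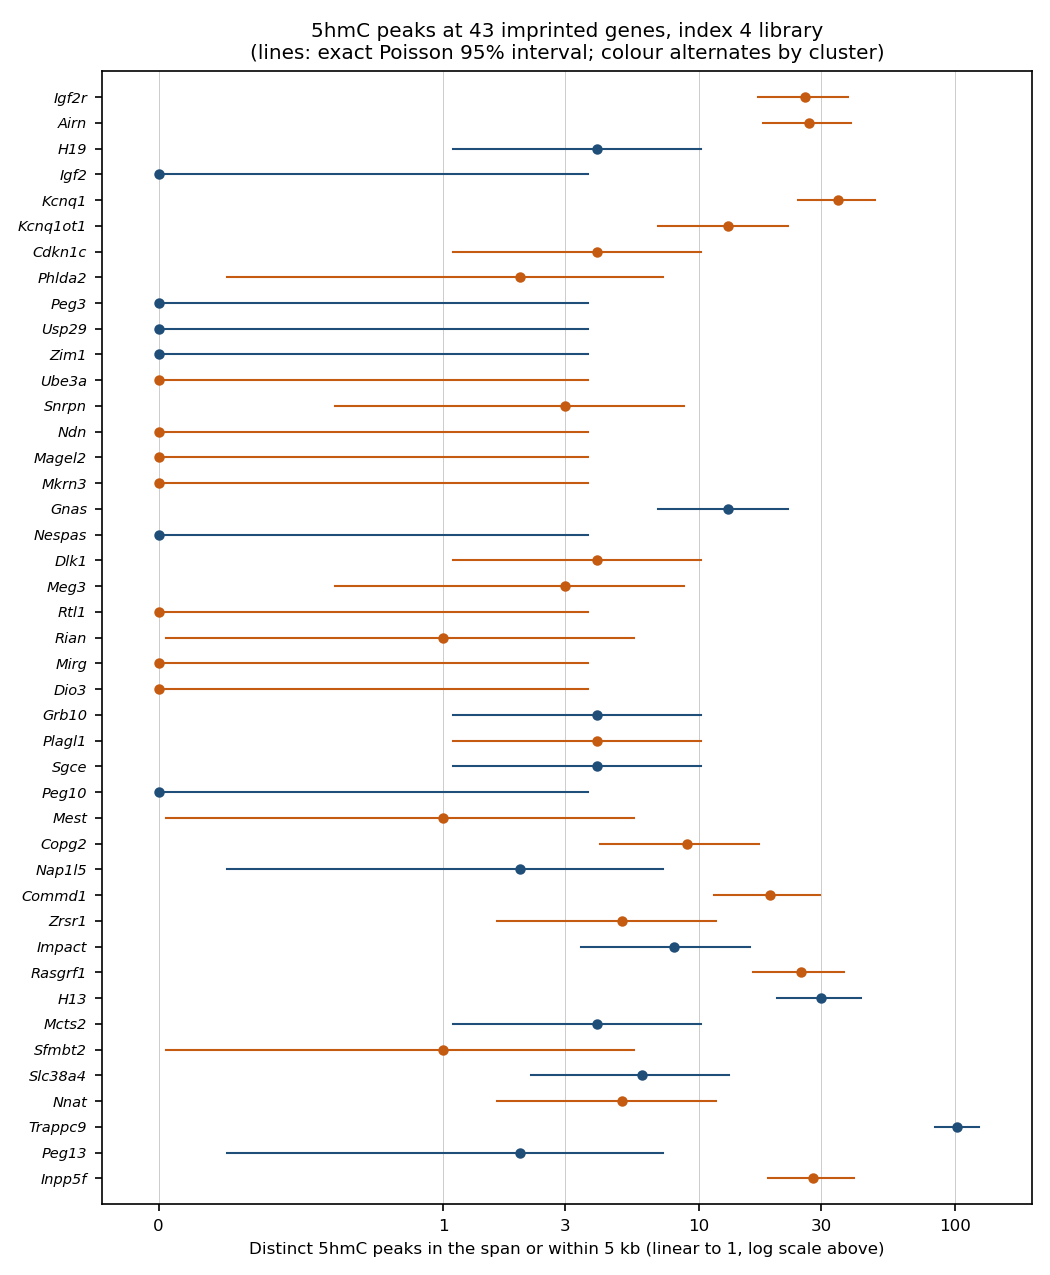
Distinct 5hmC peaks in the span or within 5 kb (x axis, linear to 1 and log above) for each of the 43 imprinted genes (y axis, ordered by cluster, with colour alternating between clusters); points are counts and lines exact 95% Poisson intervals. Trappc9 stands at 102 peaks, 9 other genes lie between 13 and 35, and 13 genes are at 0.

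The clusters differed widely in density. Each cluster was taken from 5 kb below its first member to 5 kb above its last, and set beside the 500 kb on both sides. Of the 21 clusters, 20 held at least 1 peak. The median density over clusters was 138 peaks per Mb, against a median of 148 over their flanks. Pooled over all clusters, 405 peaks in 6777 kb gave 59.8 per Mb (54.1 to 65.9), against a pooled 86.2 over all autosomes. The pooled value is weighted toward the Ube3a-Snrpn-Ndn cluster, which makes up 3201 kb of that length. By its Poisson interval, the density lay above that of its flanks in 4 clusters, H13-Mcts2, Nap1l5, Commd1-Zrsr1 and Trappc9-Peg13, and below it in 7, Peg3-Usp29-Zim1, Ube3a-Snrpn-Ndn, Dlk1-Meg3-Dio3, Grb10, Mest-Copg2, Sfmbt2 and Slc38a4. The intervals cover counting error in the cluster only and treat peaks as independent. The Nap1l5 cluster rests on 2 peaks beside flanks with 16, and the flanks of H19-Igf2 reach into the Kcnq1-Cdkn1c cluster. Beside flanks of 200 kb, 6 clusters lay above and 6 below, of which H13-Mcts2 lay above and Dlk1-Meg3-Dio3, Grb10, Mest-Copg2 and Sfmbt2 below with both flank lengths. Commd1-Zrsr1 (200 per Mb) and Trappc9-Peg13 (212 per Mb) stood below flanks of 220 and 225 per Mb at that length, and Ube3a-Snrpn-Ndn (4.69 per Mb) above flanks of 2.5. The nearest peak above Grb10 was 399 kb away and that above Sfmbt2 504 kb. Their 200 kb flanks thus held peaks on the lower side only.

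**Figure D2:**
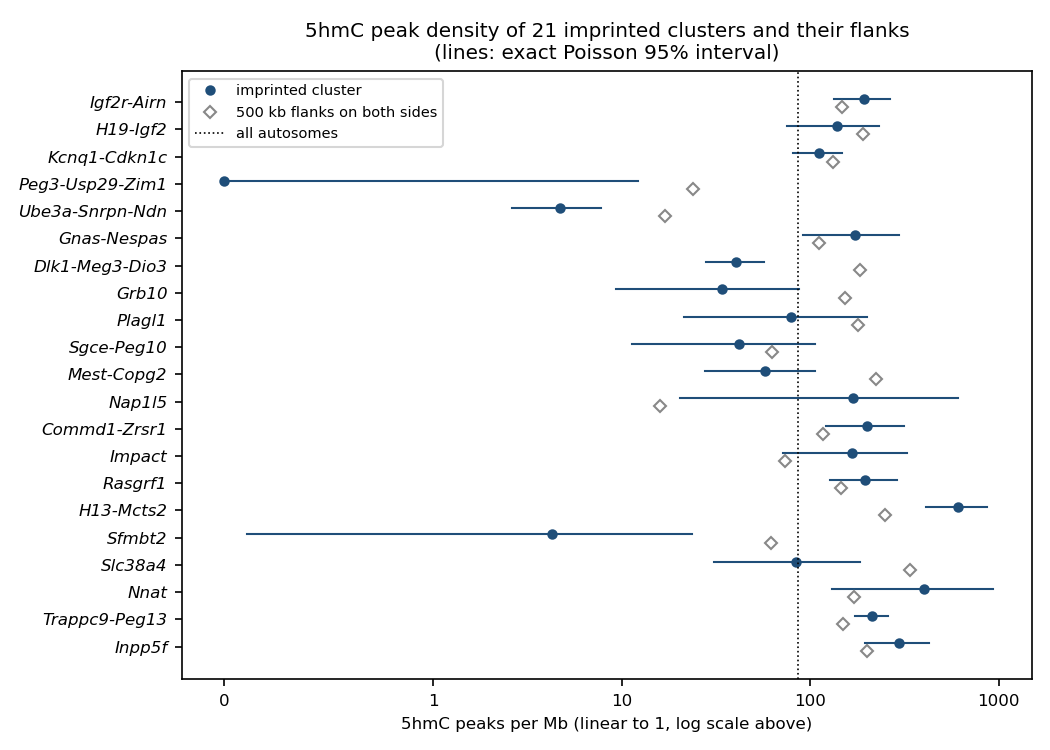
Density of 5hmC peaks per Mb (x axis, linear to 1 and log above) in each of the 21 imprinted clusters (filled points, with exact 95% Poisson intervals) and in the 500 kb flanks on both sides (open diamonds); the dotted line is the density over all autosomes, 86.2 per Mb. H13-Mcts2 is highest at 609 per Mb, and Peg3-Usp29-Zim1 is at 0.

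The Igf2r-Airn cluster carried 36 peaks in 187 kb, or 192 per Mb (134 to 266), against 148 per Mb in its flanks. Igf2r encodes the receptor that takes insulin-like growth factor 2 to the lysosome and is expressed from the maternal chromosome, and Airn is the paternal non-coding RNA that starts inside Igf2r and silences it. Igf2r (chromosome 17, 12682406 to 12769706) had 26 peaks within 5 kb (Poisson interval 17 to 38.1), and 8.64% of protein-coding genes of 20 to 100 kb had more. Airn (12741311 to 12859884) had 27 (17.8 to 39.3). The 28.4 kb that both genes share held 14 peaks, or 493 per Mb (7.65 to 23.5 peaks). The 58.9 kb of Igf2r outside Airn held 10, or 170 per Mb, and the 90.2 kb of Airn outside Igf2r held 12, or 133 per Mb. Along Airn the peaks stood toward its start: its first 59.3 kb held 25 and the remaining 59.3 kb held 1. A peak lay 82 bp upstream of the Igf2r start and another 133 bp downstream of the Airn start, in the intron of Igf2r where the maternally methylated control region of this cluster is known to lie. Of the 26 intervals at Igf2r, 19 stand on more than 1 line of the list. Over all members it was 56 of 353 (15.9%), and over the whole list 6.45%. All 12 repeated intervals at Kcnq1 lay in the span of Kcnq1ot1, which overlaps it. Both list headers set an upstream padding of 5000 bp for genes. The part of overlapping genes in these shares was not tested.

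On distal chromosome 7, the H19-Igf2 pair was divided. H19, a maternal non-coding RNA, had 4 peaks within 5 kb, and Igf2, the paternal growth factor gene, had none in its span (142650768 to 142666816) or within 5 kb. The 72.6 kb between the genes held 10 peaks, so the locus as a whole was not free of them (14 peaks, or 138 per Mb, against 191 per Mb in the flanks). The nearest peaks on either side of Igf2 stood 106 kb apart. The peak inside H19 (142576864 to 142576928) lay 135 bp from the hairpin of Mir675, the microRNA cut from the H19 transcript. H19 and its microRNA lie on the minus strand, and the nearest peak upstream of H19, the side of its control region, was 10.3 kb away.

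The neighbouring Kcnq1-Cdkn1c cluster held a peak at all 4 of its members, 45 peaks in 406 kb or 111 per Mb (80.8 to 148), against 132 per Mb in the flanks of 500 kb and 252 per Mb in those of 200 kb. Kcnq1, a potassium channel gene, had 35 peaks (24.4 to 48.7), all inside its 320 kb span. Kcnq1ot1, the paternal antisense RNA that starts within Kcnq1 and silences the cluster, had 12 in its span. These fell toward its start: the 41.7 kb at its 5′ end held 11 and the 41.7 kb at its 3′ end held 1. The nearest peak to the annotated start itself was 8.23 kb downstream, so the printed Kcnq1ot1 window, where the maternally methylated control region of the cluster lies, had no listed peak. Cdkn1c, the gene of the cell cycle inhibitor p57, had 4 peaks within 5 kb, 2 of them in its 2.72 kb span. Phlda2, a regulator of placental growth, had 2, both outside its span.

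The Peg3-Usp29-Zim1 and Ube3a-Snrpn-Ndn clusters, also on chromosome 7, held few or no peaks, and their flanks had few as well. The Peg3-Usp29-Zim1 cluster, whose paternal zinc finger gene Peg3 and deubiquitinase gene Usp29 share a promoter region, held 0 peaks in 303 kb, and the peaks on either side of Peg3 stood 639 kb apart (6387375 and 7026289). Among the 207169 intervals between neighbouring autosomal peaks, 542 were at least that long. The flanks of this cluster held 24 peaks per Mb. In the Ube3a-Snrpn-Ndn cluster, the mouse counterpart of the Prader-Willi and Angelman syndrome region, 15 peaks lay in 3201 kb, or 4.69 per Mb (2.62 to 7.73), against 17 in the flanks. Snrpn, a paternal gene of a small nuclear ribonucleoprotein whose span here also covers snoRNA repeats, had 3 peaks in 468 kb, and 68.4% of protein-coding genes of 100 kb or more had more. Their nearest distance to any of its 4 annotated starts was 16.2 kb. Ube3a, a ubiquitin ligase gene that is maternal in neurons, had none, with the nearest 24.8 kb from its start. Ndn, Magel2 and Mkrn3, paternal genes that lie side by side, sat in a peak-free interval of 1630 kb, and 74 autosomal intervals were at least as long.

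At Gnas, which makes the stimulatory G protein subunit and several imprinted transcripts from alternative starts, all 13 peaks (6.92 to 22.2) lay in the last part of the span on chromosome 2 (174284320 to 174346744). The 43.4 kb from the first to the second annotated start held 2 peaks. The 16.7 kb from the last annotated start, that of the G protein subunit, to the gene's end held 10, or 597 per Mb. Peaks lay 341 bp upstream of the second start and 966 bp upstream of the last. Nespas, the antisense RNA from the upstream end of the locus, had no peak within 5 kb, and the nearest was 31.1 kb above its span.

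The Dlk1-Meg3-Dio3 cluster on chromosome 12 carried 34 peaks in 839 kb, or 40.5 per Mb (28.1 to 56.7), against 183 per Mb in its flanks. Most stood at its Dlk1 end. The 77.7 kb between Dlk1, the paternal gene of a NOTCH-related ligand, and Meg3, a maternal non-coding RNA, held 20 peaks, or 258 per Mb (12.2 to 30.9 peaks). This stretch holds the sperm-methylated control region of the cluster. Dlk1 itself had 4 peaks within 5 kb and Meg3 had 3, the nearest 1.99 kb downstream of its first start. From Meg3 to Mirg, 208 kb of maternal non-coding RNAs held 5 peaks, or 24.0 per Mb, and the 530 kb from Mirg to Dio3 held 7. Rtl1, the retrotransposon-derived paternal gene opposite the microRNAs, Mirg, and Dio3, the gene of a thyroid hormone deiodinase, had none within 5 kb.

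Rian, a maternal non-coding RNA and host of many snoRNAs, had 1 peak, and it lay on a microRNA hairpin. Of the 58 RefSeq microRNA hairpins in the cluster interval, 13 (22.4%) lay within 5 kb of a peak, and of 919 autosomal hairpins 597 did (65.0%). Neighbouring hairpins share peaks, and only the hairpin of Mir341 (109611500 to 109611595, plus strand) was itself overlapped by a peak. That peak (109611472 to 109611552) covered 53 bp of the hairpin, with all of the 5′ arm, and stands on 3 lines of the list. The mature sequences, from RefSeq, GRCm38.p6, are shown because theirs is the only hairpin of the cluster met by a peak, with the seed (bases 2 to 8) in capitals.
mmu-miR-341-5p: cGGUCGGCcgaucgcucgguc
mmu-miR-341-3p: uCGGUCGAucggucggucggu

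Trappc9, the gene of a vesicle trafficking subunit, had the most peaks of all members, 102 within 5 kb (83.2 to 124) over 472 kb of chromosome 15 (72589620 to 73061238). Of protein-coding genes of 100 kb or more, 3.13% had more. Its density was 0.212 peaks per kb, and 65.3% of protein-coding genes had a lower one. The peaks were distributed unevenly along the gene. Its 5 equal parts, from the lower to the higher chromosome position, held 2, 4, 23, 40 and 31. Peg13, a paternal non-coding RNA that starts in an intron of Trappc9 and holds a control region, lies in the part with 23. Whether the density changes at Peg13 itself was not tested. Above Peg13, 251 kb of Trappc9 held 89 peaks, or 355 per Mb (71.5 to 110 peaks), and below it 216 kb held 11, or 50.9 per Mb (5.49 to 19.7). Peg13 (72805602 to 72810324) had none in its span and 2 within 5 kb, the nearest 0.602 kb below it. Ago2, an imprinted neighbour beyond the high-density end of Trappc9, had 81 peaks within 5 kb, or 0.868 per kb.

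**Figure D3:**
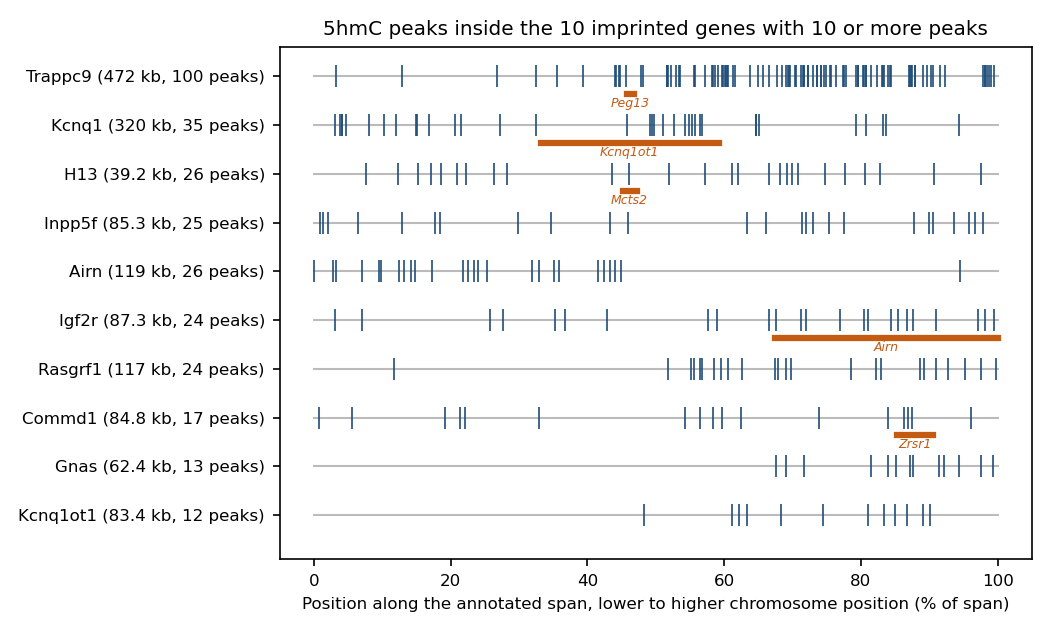
Positions of 5hmC peaks (blue ticks) inside the 10 imprinted genes with at least 10 peaks within 5 kb, from the lower to the higher chromosome position as a percentage of each span (x axis); orange bars mark the part covered by an overlapping or nested imprinted gene. Peaks gather in the higher-coordinate part of Trappc9, in the first part of Airn and in the last part of Gnas and Rasgrf1.

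In H13 and Commd1, which also host a nested imprinted gene, at least 1 peak lay on each side of it. H13, a signal peptide peptidase gene that is maternal where it overlaps Mcts2, had 30 peaks (20.2 to 42.8) in 39.2 kb of chromosome 2, or 0.609 per kb with its flanks, the highest density of the members with at least 5 peaks. A lower density was found at 93.6% of protein-coding genes. Below the paternal retrogene Mcts2, 17.7 kb of H13 held 10 peaks, and above it 20.7 kb held 15. Mcts2 itself (0.799 kb long) had 1, 372 bp downstream of its start. Commd1, a gene of copper handling and protein trafficking, had 19 peaks within 5 kb (11.4 to 29.7). The paternal retrogene Zrsr1 inside it, related to a splicing factor gene, had 5 within 5 kb and 3 in its 4.49 kb span. Below Zrsr1, 72.3 kb of Commd1 held 13 peaks, and above it 8.04 kb held 1 (0.0253 to 5.57). The peak under the printed Commd1 window (chromosome 11, 22972840 to 22972928) lay on a Commd1 start and 879 bp downstream of the Zrsr1 start. Nap1l5, a paternal nucleosome assembly gene inside Herc3, had 2 peaks within 5 kb, one 298 bp downstream of its start. Herc3 had 8. Nnat, a paternal gene of a brain proteolipid, inside Blcap, had 5 within 5 kb and 1 in its 2.45 kb span, and Blcap had 7. Inpp5f, a phosphoinositide phosphatase gene with a paternal transcript from an inner start, had 28 (18.6 to 40.5) in 85.3 kb, nearest 579 bp downstream of its start.

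The remaining members ranged from 0 to 25 peaks. Rasgrf1, an exchange factor for RAS that is paternal in mouse brain, had 25 (16.2 to 36.9) in 117 kb. Its first 58.7 kb held 1 and the last 58.7 kb held 23, and the nearest peak upstream of its span was 35.0 kb away. Not all members were one-sided. Split in the same way, Kcnq1 held 19 and 16 peaks, H13 11 and 15, and Inpp5f 11 and 14. Copg2, a coatomer gene, had 9 within 5 kb and Impact, a regulator of translation, 8. Slc38a4, an amino acid transporter gene, had 6 in 71.1 kb with flanks, or 84.3 per Mb (31.0 to 184), beside flanks at 337 per Mb over 500 kb and 145 per Mb over 200 kb. Plagl1, a zinc finger factor, had 4, the nearest 2.73 kb upstream of its start. Mest, a paternal hydrolase gene, had a single peak, which lay 36 and 33 bp downstream of both of its inner annotated starts.

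Grb10, an adaptor that restrains insulin signalling, had 4 peaks in 107 kb (1.09 to 10.2), and 64.8% of protein-coding genes of 100 kb or more had more. All 4 stood in the 53.5 kb at its 3′ end, and both annotated starts lay in a peak-free interval of 469 kb. That interval ran 399 kb beyond the span on the higher-coordinate side. The 500 kb flanks of the gene held 152 peaks per Mb. Its 200 kb flanks held 175 per Mb, all of it on the lower side. Sgce, a sarcoglycan gene, had 4 peaks, and Peg10, the retrotransposon-derived gene beside it, had none in an interval of 154 kb. Sfmbt2, a Polycomb-related gene, had 1 peak in 225 kb, and 77.0% of protein-coding genes of 100 kb or more had more. Its flanks held 62 peaks per Mb, mostly on the lower side, because the nearest peak above its span was 504 kb away.

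RefSeq promoters were matched for 33 members, with 50 annotated starts. A peak lay within 1 kb of a start in 10 of these genes (30.3%), against 28.4% of 27025 genes with RefSeq promoters. They were Airn, Commd1, Copg2, Gnas, Igf2r, Inpp5f, Mcts2, Mest, Nap1l5 and Zrsr1. A peak overlapped the 300-base window in 3 (9.09%), against 6.40%. Within 2 kb it was 13 (39.4%), against 43.6%. The median distance from a gene's start to the nearest peak was 5.22 kb for members and 2.92 kb for all genes. The shares of members were thus near those of all genes at short distances. Within about 100 kb, 81.8% of members and 87.2% of all genes had a peak, so both groups had a tail of distant starts. The farthest member starts were those of Ndn (676 kb), Magel2 (647), Mkrn3 (604), Zim1 (309), Peg3 and Usp29 (296 each). All of these lie in the Peg3-Usp29-Zim1 and Ube3a-Snrpn-Ndn clusters.

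**Figure D4:**
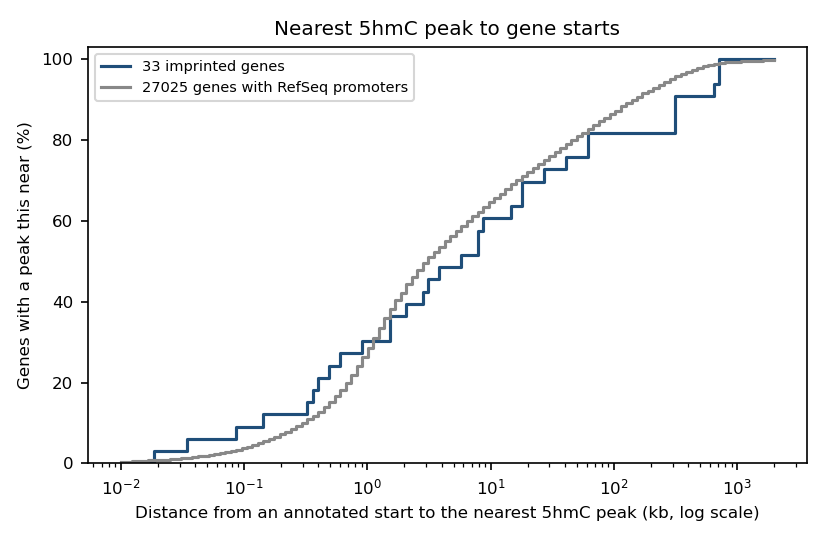
Share of genes (y axis, %) with a 5hmC peak within a given distance of an annotated start (x axis, kb, log scale), for 33 imprinted genes (blue) and 27025 genes with RefSeq promoters (grey), taking the nearest start of each gene. Within 1 kb the shares are 30.3% and 28.4%, and within about 100 kb they are 81.8% and 87.2%, with a tail beyond in both lines.

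The starts of members were rich in CpG, with a median of 15 per window against 7 over all 32851 windows. The letters TGCCGC, the motif bound by ZFP57 when methylated, were searched on both strands. They occurred in 13 of 50 member windows (26%), against 11.6% of all windows. The motif itself holds a CpG, and the part of CpG content in this difference was not tested. The Mest and Nap1l5 windows hold 2 each and the Igf2r, Airn, Commd1, Peg3 and Kcnq1ot1 windows printed above hold none. Several windows of 1 gene overlap, such as those of Mest and Gnas, and a match is a description only.

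By the parental copy they are known to be expressed from, 12 of 15 maternal members (80%) and 16 of 26 paternal members (61.5%) had a peak within 5 kb, against 73.1% of protein-coding genes and 57.9% of all annotated genes. The medians were 0.106 peaks per kb over maternal members and 0.0442 over paternal members, against 0.106 over protein-coding genes. The spans differ too, with medians of 57.8 kb and 15.5 kb, and the part of span in this difference was not tested. Members of a cluster are not independent cases. The paternal Peg3 and Usp29 share a peak-free interval with the maternal Zim1, and the paternal Ndn, Magel2 and Mkrn3 share another. Gnas and Inpp5f, whose expressed copy depends on the transcript, both had peaks. The parental copies are those known from any tissue, such as neurons for Ube3a and brain for Rasgrf1. Which copy is expressed in marrow was not measured.

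Of 45 other imprinted or imprinting-linked genes listed for comparison, 44 were found in the gene table and 37 had a peak within 5 kb (84.1%), at a median of 0.129 peaks per kb, against 73.1% and 0.106 over protein-coding genes. Those with the most were Ago2 with 81, Phactr2 with 55, Ampd3 with 42, Ppp1r9a with 35 and Atp10a with 22. Near members with few or no peaks, neighbours went both ways. Ppp1r9a lies near Peg10, Ddc with 20 near Grb10 and Atp10a near Ube3a, while Cobl, on the other side of Grb10, had 1 peak in 228 kb, and Zim2 and Zim3 near Peg3, Peg12 near Mkrn3 and Ins2 near Igf2 had none.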

How the data were processed

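The measurements were 5hmC peak lists of the 2 leukaemia samples. Sheared genomic DNA was enriched by adding an azide-glucose to 5hmC, coupling it to biotin and capturing on avidin, then sequenced in pairs on a HiSeq2000, per the labels' protocols. Per the file headers, the authors called peaks with PICS, with reads of 99 bp, fragments of 200 bp, windows of 250 bp and at least 3 reads per window and 10 per region. The aligner and score cutoff are not given in the sources used here, and the build mm10 comes from the submitters' processing notes. The deposited lists hold positions only, with no score, count or signal, so depth is unknown and no stricter threshold could be tried.

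Each interval was counted once (13447 intervals are repeated), with positions 1-based. Positions were stored coarsely, in steps of 1 to 16 bp at the members. Spans came from a RefSeq table of GRCm38.p6, leaving out models placed below 3 Mb on any chromosome but Y. Members, clusters, parental copies and comparison lists come from general knowledge and were chosen with earlier results of these data known. The text names members with at least 10 peaks, the highest density among those with at least 5, those with none and at least 1 of each cluster. Intervals are at 95% and cover counting error only. The comparison list of other imprinted genes was used without 1 gene, which is not reported here. No chance test was made. The counter was tested on simulated peaks. Python 3.11.15, pandas 2.3.3, numpy 2.4.6 and scipy 1.17.1 were used.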

Additional observations from a re-analysis of the deposited data

How the results depend on the processing

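With no flank, a 10 kb flank, any overlap of at least 1 bp, repeated lines kept, or Trappc9 left out (chosen after seeing the data), members with a peak ranged from 28 to 31, distinct peaks at members from 253 (without Trappc9) to 417 (repeated lines kept), the median density from 0.0654 to 0.0926 peaks per kb and the median cluster density from 120 to 140 per Mb. Coding members alone gave 24 with a peak. The share of members over that of protein-coding genes was 0.954, between 0.937 and 0.977 under these settings, and 1.21 over all annotated genes, which include short non-coding genes with a lower share, so the direction depends on the background. Single cluster counts moved by over 1.5 times in 3 clusters with no flank, 2 with 10 kb and 2 with repeated lines. Clusters denser than their flanks numbered 10, or 8 with 200 kb flanks, and members with a peak at a start 10, or 13 within 2 kb, both chosen after seeing the data. Without either replicate every value was the same (30 members, 353 peaks, 0.954, 0.0786 per kb, 138 per Mb), because the lists are identical, which says nothing about stability. No paired analysis was possible because no list of normal marrow was analysed and no result comes from a test. Unknown depth and unknown control libraries leave absent peaks uninterpretable as absent 5hmC.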

Other observations

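Genes of the proteins that keep or read imprints all carried peaks. Of 12 such genes, 12 had a peak within 5 kb, at a median of 0.2 peaks per kb, against 73.1% and 0.106 over protein-coding genes. Arid4a, a chromatin protein gene, had 25 peaks, Uhrf1, the reader that brings DNMT1 to hemimethylated CpGs, 21, Dnmt3l, the cofactor of germ-line methylation, 19, Ctcf, the insulator protein gene, 12, and Smchd1 11. Trim28, the corepressor recruited by ZFP57 and ZFP445, had 5, Zfp445 9 and Zfp57 itself 1. Arid4b, related to Arid4a, had 1 peak in 136 kb.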
